A study of Mus musculus with 9 samples.

Results

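The liver's hepatocytes secrete most of the proteins of blood plasma. The genes described here encode 48 of these: carriers, complement components, clotting factors and the proteins that restrain clotting or dissolve clots. They were taken by name from every non-control probe of a mouse expression array, and 47 of the 48 had a probe, of 37008 gene names on the array. No probe was named C5, and RefSeq lists that name as an older one of Hc, which is given below with the other complement genes. Of 70 member probes 68 passed the filter on background, and the brightest kept probe stood for its gene among 23965 genes tested. To pass, a probe had to be above background throughout 1 group or more, that is on each of its 3 arrays. Of the 47 measured members, 24 passed through the quiescent group alone, but the same 47 were tested and the same number called without the filter.

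The cells were hepatic stellate cells, which store vitamin A beside the liver sinusoids and turn into collagen-producing myofibroblasts when activated. They came from C57BL/6 mice aged 10 weeks by collagenase perfusion and formed 3 groups of 3 arrays. Cells given the Cav1 siRNA (labelled si-cav) and cells given a negative control siRNA (labelled nc) had attached to hard plates and been cultured for 7 days before an overnight transfection with 5 nM siRNA. Quiescent cells (labelled qhsc) had no treatment, and the labels give no time of harvest for them. No genotype other than the strain, and no sorting step, is given for any group. The activated cells are thus a model of activation on plastic, and the siRNA a transient knockdown of Cav1, the gene of the caveolar coat protein caveolin-1. The labels leave unsaid whether replicate samples are from different mice or cultures. Each p-value therefore reflects only how these samples varied, which may be technical in part.

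As background, most plasma protein genes are switched on in hepatocytes by liver-enriched transcription factors such as HNF1, HNF4, FOXA and C/EBP proteins. Complement is a chain of proteases started by antibody (C1), by sugars (the mannose-binding lectins and their proteases) or by slow turnover of C3, and it ends in a membrane pore built by the terminal components. Coagulation is a chain of proteases that ends with thrombin cutting fibrinogen into fibrin, and plasmin later dissolves the clot. Some complement components, C3 and the C1 proteases among them, are also made by fibroblasts and macrophages.

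The label was first set against marker genes. Alb, Ttr and Mup20, the 3 marker members, were above background on all 3 quiescent arrays, and over the 6 activated arrays Alb was above background on 1, Ttr on 0 and Mup20 on 5. The linear signals of 10 hepatocyte markers, expressed as multiples of each array's 75th percentile, summed to 0.391 to 0.427 on the Cav1-siRNA arrays, 0.514 to 0.535 on the control-siRNA arrays and 818 to 1024 on the quiescent arrays. Alb, Ttr and Mup20 are among these 10, so this sum is in part a sum of members and not a separate check. All 10 were lower in control-siRNA than in quiescent cells, and Ttr, Hnf4a, Cps1, Pck1 and Apoa1 were above background on none of the control-siRNA arrays. Summed stellate markers (8 of 10 measured) were 20.5 to 20.9, 20.8 to 24.1 and 11.1 to 32.5 in the same groups, with Lrat and Rgs5 below background on the control-siRNA arrays. Of these 8 genes 5 were called lower and 1, Pdgfrb, higher in control-siRNA than in quiescent cells, with a median log2 change of -1.54. Pdgfrb gave most of the sum in activated cells. Colec11 gave most of it in quiescent cells, with log2 signals of 3.53, 4.49 and 2.88 there. Endothelial markers summed to 0.784 to 0.843 on the Cav1-siRNA arrays, 0.834 to 0.874 on the control-siRNA arrays and 327 to 551 on the quiescent arrays, and Kupffer cell and macrophage markers to 28.9 to 30.9, 31.8 to 35.1 and 302 to 483. Lyz2 gave most of the macrophage sum in activated cells. All 10 macrophage markers were called lower in control-siRNA than in quiescent cells, with Clec4f, Vsig4 and Timd4 above background on no activated array. Lymphocyte and neutrophil markers summed to 1.26 to 1.5, 1.52 to 1.62 and 24.8 to 55.9, and erythroid markers to 0.0895 to 0.102, 0.0869 to 0.111 and 226 to 348, in the same groups. Myofibroblast markers summed to 820 to 870 on the Cav1-siRNA arrays, 749 to 773 on the control-siRNA arrays and 10.2 to 25.6 on the quiescent arrays. Mesothelial markers summed to 24.7 to 26.8, 30.4 to 31.3 and 20.9 to 30.9 in the same groups, with 6 of 7 called higher and 1 lower in control-siRNA than in quiescent cells (median log2 change +3.78). The 1 called lower, Krt18, gave most of the quiescent sum, with log2 signals of 4.70, 4.31 and 4.90 there. Cholangiocyte markers (6 of 8 measured) summed to 25.0 to 27.9, 27.4 to 33.2 and 5.40 to 7.70, with 2 called higher and 3 lower (median log2 change -1.23). Spp1 gave most of that sum in activated cells, with log2 signals of 4.79, 4.77 and 4.63 after Cav1 siRNA and 5.04, 4.76 and 4.90 after control siRNA. The quiescent RNA thus held high signals of hepatocyte, endothelial, macrophage and erythroid genes beside those of stellate cells. Lymphocyte and neutrophil markers also summed higher there than in activated cells. In such bulk samples fewer cells of a type and less RNA per cell cannot be told apart, and the part of cell content in the changes below was not tested.

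Cav1, the gene targeted by the siRNA, had log2 signals of -2.87, -2.89 and -3.07 after Cav1 siRNA, -1.34, -1.12 and -1.09 after control siRNA and -4.87, -5.65 and -5.84 in quiescent cells. Cav1-siRNA cells kept 29.4% of the control-siRNA mean (limma, adjusted p = 0.145). All log2 signals here are relative to the array's 75th percentile, and they do not rank the levels of different genes, since each probe has its own response. The arrays lay on 2 slides, with the 3 quiescent arrays and control-siRNA array 1 on slide 1 and the other 5 arrays on slide 2.

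Control-siRNA cells were compared with quiescent cells to ask how plasma protein genes differ once the cells have been activated in culture. Of the 47 measured members 46 fell, 0 rose and 1, Masp1, did not pass the test (limma over all genes, Benjamini-Hochberg, adjusted p under 0.05, against 26% of all genes called lower and 42.1% called higher). In every one of the 46 the 3 control-siRNA arrays lay below the 3 quiescent arrays, as they did in 27% of all genes. The median log2 change of the 47 was -9.30, or -8.52 with the 19 genes below background in control-siRNA cells set at their bound, against +0.32 for all genes. Of the members 41 (87.2%) fell by more than 5 on the log2 scale, against 5.50% of all genes. Since 24 of the 47 passed the filter through the quiescent group alone, the filter itself favours falls in these counts. With only probes above background on all 9 arrays, 17 of 18 members were called lower, against 4735 of 16819 genes. Their median log2 change was -6.96. Cav1-siRNA cells set against the same 3 quiescent arrays also had 46 members lower and 0 higher (27.2% of all genes were called lower there), with a median of -9.51, or -8.59 with the 23 genes below background in Cav1-siRNA cells at their bound. The 2 comparisons share their quiescent arrays, so they are not separate evidence. Within slide 1, where the only control-siRNA array is array 1, 46 members were called lower (20.6% of all genes were). That lone array is assumed to vary like the other groups. Of all calls with the control siRNA 61.8% were higher, and 46.2% with normexp background correction.

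**Figure D1:**
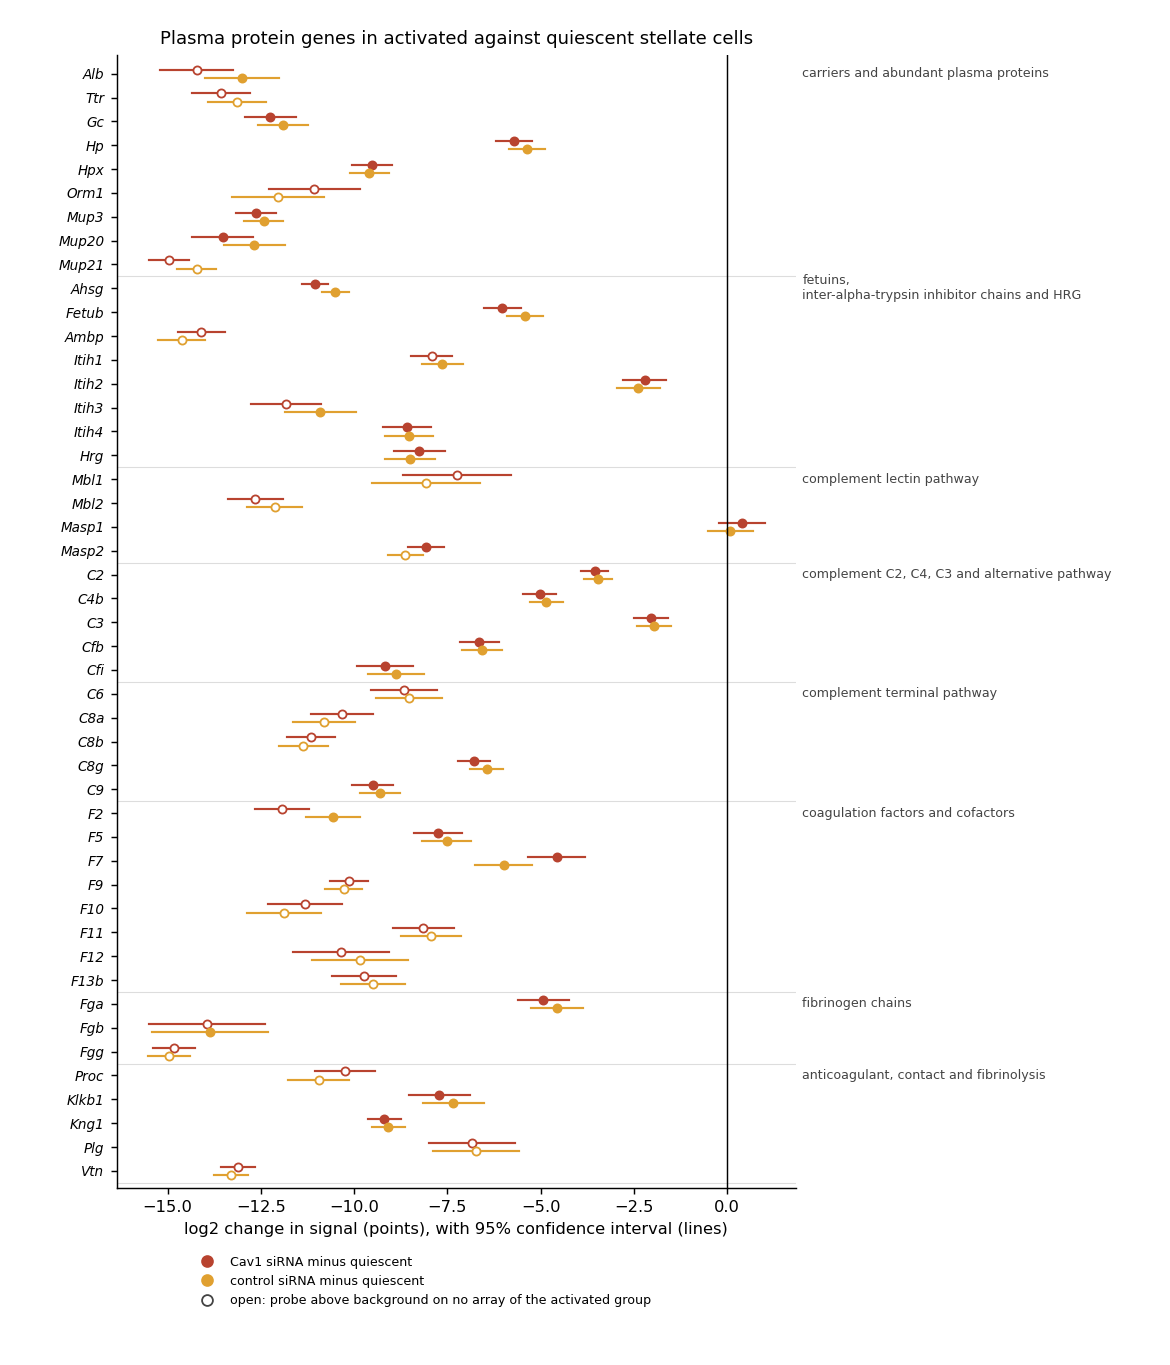
Log2 change of the 47 measured members in Cav1-siRNA (red) and control-siRNA (yellow) cells against quiescent cells, with 95% confidence intervals as lines and genes grouped by role. All points but those of Masp1 lie below 0, and open points mark genes whose probe was above background on no array of that activated group, so that the size of their change is limited by background.

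**Figure D2:**
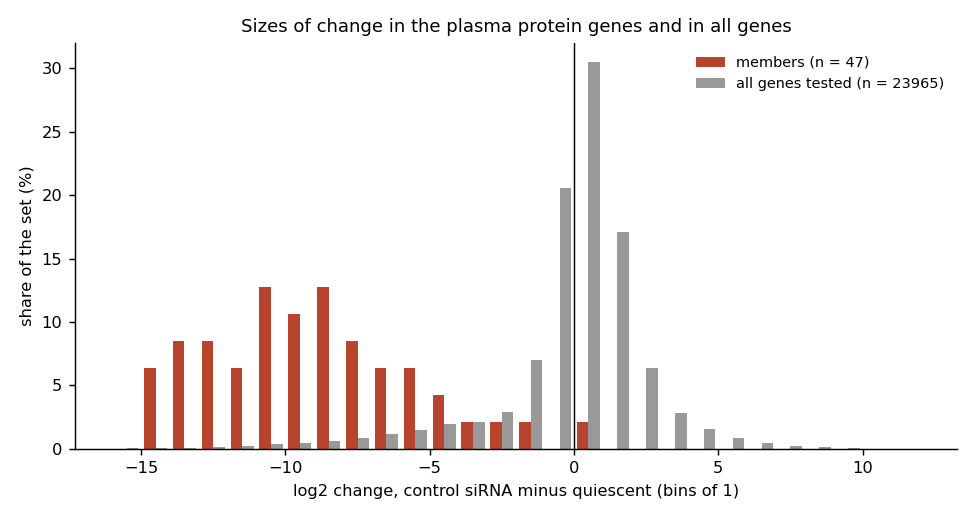
Shares of the 47 members (red) and of the 23965 genes tested (grey) in bins of 1 of the log2 change, control siRNA minus quiescent. The members lie mostly below -5, with a median of -9.30, and all genes have a median of +0.32.

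The carriers and abundant plasma proteins all fell, 9 of 9, with a median log2 change of -12.42, or -11.91 with genes below background in control-siRNA cells at their bound. Alb, the gene of albumin, the main protein of plasma (chr5:90905550-90905609 on mm9), had log2 signals of -7.92, -8.21 and -6.30 after Cav1 siRNA, -6.05, -6.51 and -6.21 after control siRNA and 6.99, 6.61 and 6.63 in quiescent cells. Ttr, the carrier of thyroid hormone and retinol-binding protein, had -8.00, -8.26 and -7.67 after Cav1 siRNA, -6.90, -7.32 and -8.42 after control siRNA and 5.71, 5.50 and 5.56 in quiescent cells. Mup20, a major urinary protein that carries pheromones (chr4:61711407-61711466), had -6.11, -5.73 and -5.86 after Cav1 siRNA, -5.77, -5.20 and -4.19 after control siRNA and 7.26, 7.86 and 7.76 in quiescent cells. For each of the 3, by the probe standing for the gene, activated and quiescent arrays were separated by over 10 log2 units and did not overlap. Alb was 8204-fold lower in control-siRNA cells (log2 -13.00, SE 0.43, adjusted p = 1.8e-08), while its probe was above background on 1 of the 3 arrays there, and at least 6894-fold lower in Cav1-siRNA cells. Ttr was at least 3418-fold lower in control-siRNA cells (adjusted p = 5.3e-09). A second Ttr probe, also above background on no activated array, gave at least 205-fold (log2 -9.23). Mup20 fell 6560.3-fold (log2 -12.68, SE 0.36).

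Other carriers kept a signal above background on all 6 activated arrays. Gc, the vitamin D-binding protein, had log2 signals of -5.13, -5.54 and -5.38 after Cav1 siRNA, -5.07, -5.65 and -4.31 after control siRNA and 7.03, 6.80 and 6.87 in quiescent cells. Hpx, hemopexin, which binds free heme, had -2.77, -2.76 and -2.88 after Cav1 siRNA, -2.66, -3.09 and -2.88 after control siRNA and 6.17, 7.00 and 6.97 in quiescent cells. Hp, haptoglobin, the scavenger of free hemoglobin (chr8:112099045-112099104), had 1.02, 0.89 and 1.33 after Cav1 siRNA, 1.56, 1.40 and 1.32 after control siRNA and 6.40, 7.15 and 6.86 in quiescent cells. Haptoglobin thus stayed above the array's 75th percentile in activated cells, and its fall of 41.5-fold (log2 -5.38, SE 0.21, adjusted p = 4.5e-08) was the smallest of the 9, against 3841-fold for Gc and 773-fold for Hpx. The acute-phase carrier Orm1 (at least 1656-fold lower) and the urinary protein Mup21 (at least 14782-fold) were above background on no activated array. A second Mup21 probe gave at least 1568-fold. Mup and Orm genes have near-identical copies, so their values are uncertain one by one.

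Probes of 1 gene did not always tell the same story. The second Alb probe, chr5:90901598-90901657, was above background on no activated array and gave at least 15942-fold lower signal in control-siRNA cells (log2 -16.15). Mup3, another major urinary protein, had 3 kept probes. The one standing for the gene had -4.89, -5.38 and -4.63 after Cav1 siRNA, -4.56, -5.01 and -4.72 after control siRNA and 7.35, 7.82 and 7.82 in quiescent cells, a log2 change of -12.42. A further probe of the same transcript was above background on no activated array. It gave at least 3731-fold lower signal in control-siRNA cells (log2 -13.53). The third, annotated to the cDNA clone AK132124, had -1.91, -2.07 and -2.02 after Cav1 siRNA, -2.13, -2.18 and -1.87 after control siRNA and -3.67, -3.24 and -3.50 in quiescent cells, and was called higher (log2 +1.41, adjusted p = 5.0e-05, against 43% of all kept probes called higher and 25% called lower). The probes lie on the minus strand of chromosome 4 at chr4:61744500-61744548, chr4:61745794-61745853 and chr4:61743330-61743389 (mm9), and are shown because the last moved against the others.
Mup3 A_52_P232508: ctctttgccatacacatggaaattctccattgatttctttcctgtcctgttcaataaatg
Mup3 A_55_P1971237: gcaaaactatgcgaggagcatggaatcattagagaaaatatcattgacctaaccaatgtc
Mup3 A_66_P133052: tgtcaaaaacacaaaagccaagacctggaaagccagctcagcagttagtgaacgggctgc

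Fetuins, the chains of the inter-alpha-trypsin inhibitor, which binds hyaluronan in the matrix, and histidine-rich glycoprotein fell in 8 of 8 cases, with a median of -8.51. Ahsg, fetuin-A, an inhibitor of mineral deposition (chr16:22899415-22899474), had log2 signals of -3.30, -3.46 and -3.71 after Cav1 siRNA, -2.77, -2.99 and -3.04 after control siRNA and 7.68, 7.43 and 7.59 in quiescent cells. Fetub, fetuin-B, had -2.54, -2.68 and -2.55 after Cav1 siRNA, -1.98, -2.11 and -1.85 after control siRNA and 2.98, 3.46 and 3.86 in quiescent cells. Itih4 had -4.20, -4.27 and -3.96 after Cav1 siRNA, -4.27, -4.10 and -3.87 after control siRNA and 3.75, 4.72 and 4.86 in quiescent cells. These genes stayed above background on all 6 activated arrays and still lay far below every quiescent array, with falls of 1449-fold for Ahsg, 42.6-fold for Fetub and 368-fold for Itih4. A second Itih4 probe gave a log2 change of -4.18, against -8.52 for the first. Hrg, the histidine-rich glycoprotein of plasma, had -3.20, -3.79 and -3.97 after Cav1 siRNA, -3.95, -3.94 and -3.82 after control siRNA and 4.71, 3.97 and 5.12 in quiescent cells. Its fall was 363-fold.

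Itih2, a heavy chain of the inhibitor (chr2:10018826-10019537), had the smallest fall of the 8, with log2 signals of 0.24, 0.27 and 0.39 after Cav1 siRNA, 0.18, 0.14 and 0.05 after control siRNA and 2.46, 1.96 and 3.11 in quiescent cells. Its activated arrays kept 21.6% of the quiescent level after Cav1 siRNA and 19.2% with the control siRNA (log2 -2.38, SE 0.26, adjusted p = 3.3e-05). Ambp, the precursor of the light chain bikunin and of alpha-1-microglobulin, had -7.87, -7.46 and -8.34 after Cav1 siRNA, -8.12, -8.55 and -8.58 after control siRNA and 5.74, 6.51 and 6.36 in quiescent cells. It was at least 5213-fold lower in control-siRNA cells and above background on none of the 6 activated arrays. Itih1 (log2 -7.64) and Itih3 (-10.91) lay between these.

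In the lectin pathway of complement 3 of 4 genes fell and Masp1 did not pass the test. Mbl2, a mannose-binding lectin that recognises microbial sugars, had log2 signals of -7.86, -8.17 and -8.20 after Cav1 siRNA, -7.11, -8.26 and -7.32 after control siRNA and 4.03, 4.79 and 4.89 in quiescent cells, and was at least 1684-fold lower in control-siRNA cells. Mbl1 was at least 79.3-fold lower and Masp2, the protease that cuts C4 and C2, at least 335-fold lower. Masp1, whose products include the serine proteases MASP-1 and MASP-3 and the truncated MAp44, made by alternative splicing, had 4.24, 4.11 and 4.14 after Cav1 siRNA, 3.80, 3.84 and 3.91 after control siRNA and 3.64, 4.43 and 3.22 in quiescent cells. The activated arrays lay inside the range of the quiescent ones in that probe, with a log2 change of +0.08 (SE 0.27, adjusted p = 0.795) in control-siRNA cells and +0.40 (SE 0.27, adjusted p = 0.213) in Cav1-siRNA cells. Quiescent array 2 decided this, since without it Masp1 was called higher at +0.42 (adjusted p = 0.0334 by limma) and +0.73 (adjusted p = 0.00256) in control-siRNA and in Cav1-siRNA cells.

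The 5 Masp1 probes, all on the minus strand of chromosome 16, differed in direction along the gene. From the lowest coordinate they lie at chr16:23449609-23449668 (D16492), chr16:23452460-23452519 (NM_008555), chr16:23468544-23468603 (XM_006521828, the probe above), chr16:23479833-23479892 (XM_006521829) and chr16:23490405-23490464 (AK032944) on mm9, and no exon is assigned to them here. The D16492 probe had -4.01, -3.46 and -3.66 after Cav1 siRNA, -4.01, -3.73 and -4.03 after control siRNA and 0.16, 0.29 and 0.97 in quiescent cells. It was called lower in control-siRNA cells (log2 -4.40, adjusted p = 3.6e-07 over all kept probes), and so was it in Cav1-siRNA cells (-4.18). The NM_008555 probe had -7.87, -8.41 and -8.33 after Cav1 siRNA, -8.12, -8.55 and -8.58 after control siRNA and -5.11, -5.62 and -4.84 in quiescent cells, was above background on 2 quiescent arrays and no activated one, and was not tested. The XM_006521829 probe had -4.13, -3.82 and -4.31 after Cav1 siRNA, -4.18, -4.15 and -4.19 after control siRNA and -5.59, -3.24 and -5.41 in quiescent cells, with overlapping groups and a log2 change of +0.57 (adjusted p = 0.36). The AK032944 probe had 0.15, 0.17 and 0.13 after Cav1 siRNA, -0.28, -0.18 and -0.30 after control siRNA and -1.27, -0.86 and -0.73 in quiescent cells and was called higher, 2.15-fold (adjusted p = 2.5e-04) with the Cav1 siRNA and 1.62-fold (adjusted p = 0.004) with the control siRNA, each against quiescent cells. With the mean of the kept probes Masp1 was called lower in control-siRNA cells (log2 -0.76, adjusted p = 0.0131), so the gene as a whole has no single direction here. The probe sequences are given because the D16492 probe was called lower and the AK032944 probe higher. The probes are not shown to lie in 1 transcript.
Masp1 D16492: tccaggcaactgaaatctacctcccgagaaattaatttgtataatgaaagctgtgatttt
Masp1 NM_008555: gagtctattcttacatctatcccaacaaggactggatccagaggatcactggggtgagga
Masp1 XM_006521828: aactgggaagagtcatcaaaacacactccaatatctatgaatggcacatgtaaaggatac
Masp1 XM_006521829: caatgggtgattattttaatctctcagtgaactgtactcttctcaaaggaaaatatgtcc
Masp1 AK032944: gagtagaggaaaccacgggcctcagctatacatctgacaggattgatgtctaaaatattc

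**Figure D3:**
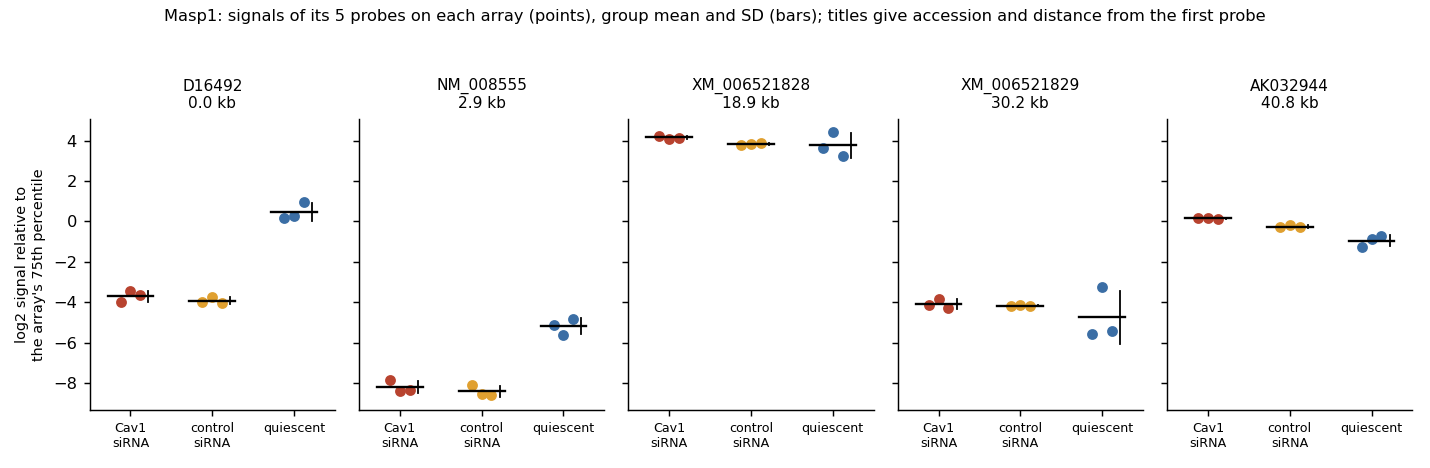
Log2 signal of the 5 Masp1 probes on each array (points, with group mean and SD as bars), ordered by distance from the probe at the lowest coordinate (in kb, given in the panel titles). The first 2 probes are lower in both activated groups, the activated arrays of the next 2 lie within the range of the quiescent arrays, and the last is higher in both activated groups.

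C2, C4b, C3 and the alternative pathway genes fell in 5 of 5 cases, with a median of -4.85 that was the smallest in size of the 8 groups of members. C3, the central component on which all pathways converge (chr17:57343416-57343475), had log2 signals of 5.86, 5.80 and 5.70 after Cav1 siRNA, 6.03, 5.80 and 5.79 after control siRNA and 7.54, 7.68 and 8.28 in quiescent cells. C2, part of the C3-cutting enzyme of the classical and lectin pathways, had -0.22, -0.20 and -0.26 after Cav1 siRNA, 0.09, -0.17 and -0.33 after control siRNA and 3.37, 3.10 and 3.51 in quiescent cells. C4b, its partner, had -1.13, -1.21 and -1.15 after Cav1 siRNA, -1.13, -0.86 and -0.95 after control siRNA and 3.42, 4.11 and 4.07 in quiescent cells. Quiescent arrays were the highest in all 3, and C3 stayed far above the 75th percentile on every activated array. Control-siRNA cells kept 25.7% of the quiescent level of C3 (log2 -1.96, SE 0.20, adjusted p = 2.4e-05), 9.05% of C2 (log2 -3.47, SE 0.16) and 3.48% of C4b (log2 -4.85, SE 0.20). A second C3 probe gave -2.15 and a second C4b probe -4.83, and signals of C4b and its near-identical copy C4a cannot be told apart with certainty.

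Factor B and factor I fell further. Cfb, the protease of the alternative pathway, had log2 signals of -2.21, -2.08 and -2.28 after Cav1 siRNA, -2.31, -1.93 and -2.13 after control siRNA and 3.90, 4.73 and 4.73 in quiescent cells, a fall of 95.3-fold in control-siRNA cells (log2 -6.57). Cfi, the protease that inactivates C3b and C4b, had -5.40, -5.35 and -5.88 after Cav1 siRNA, -5.88, -4.96 and -4.90 after control siRNA and 3.05, 3.93 and 3.88 in quiescent cells. It fell 468-fold (log2 -8.87, adjusted p = 3.3e-08), and its probe was above background on 5 of the 6 activated arrays.

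The terminal components, which form the membrane attack complex, fell in 5 of 5 measured cases, with a median of -9.30, or -8.74 with 3 genes at their bound. C8g, the gamma chain of C8 and a lipocalin (chr2:25354176-25354235), had log2 signals of -1.13, -1.54 and -1.61 after Cav1 siRNA, -0.94, -1.10 and -1.22 after control siRNA and 5.20, 5.21 and 5.66 in quiescent cells. C9, which polymerises into the pore, had -4.97, -4.86 and -4.70 after Cav1 siRNA, -4.90, -4.73 and -4.29 after control siRNA and 4.23, 4.67 and 5.08 in quiescent cells. C8b, the beta chain of C8, had -7.86, -8.39 and -8.36 after Cav1 siRNA, -8.14, -8.53 and -8.56 after control siRNA and 2.34, 3.08 and 3.44 in quiescent cells. The first 2 stayed above background on all 6 activated arrays, with falls of 87.1-fold and 632-fold in control-siRNA cells, while C8b was at background there and at least 548-fold lower. C6 was at least 115-fold and C8a at least 428-fold lower, both below background on every activated array. The 3 chains of C8 thus differed in what remained, with C8g at 1.15% of the quiescent level and the others at background.

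**Figure D4:**
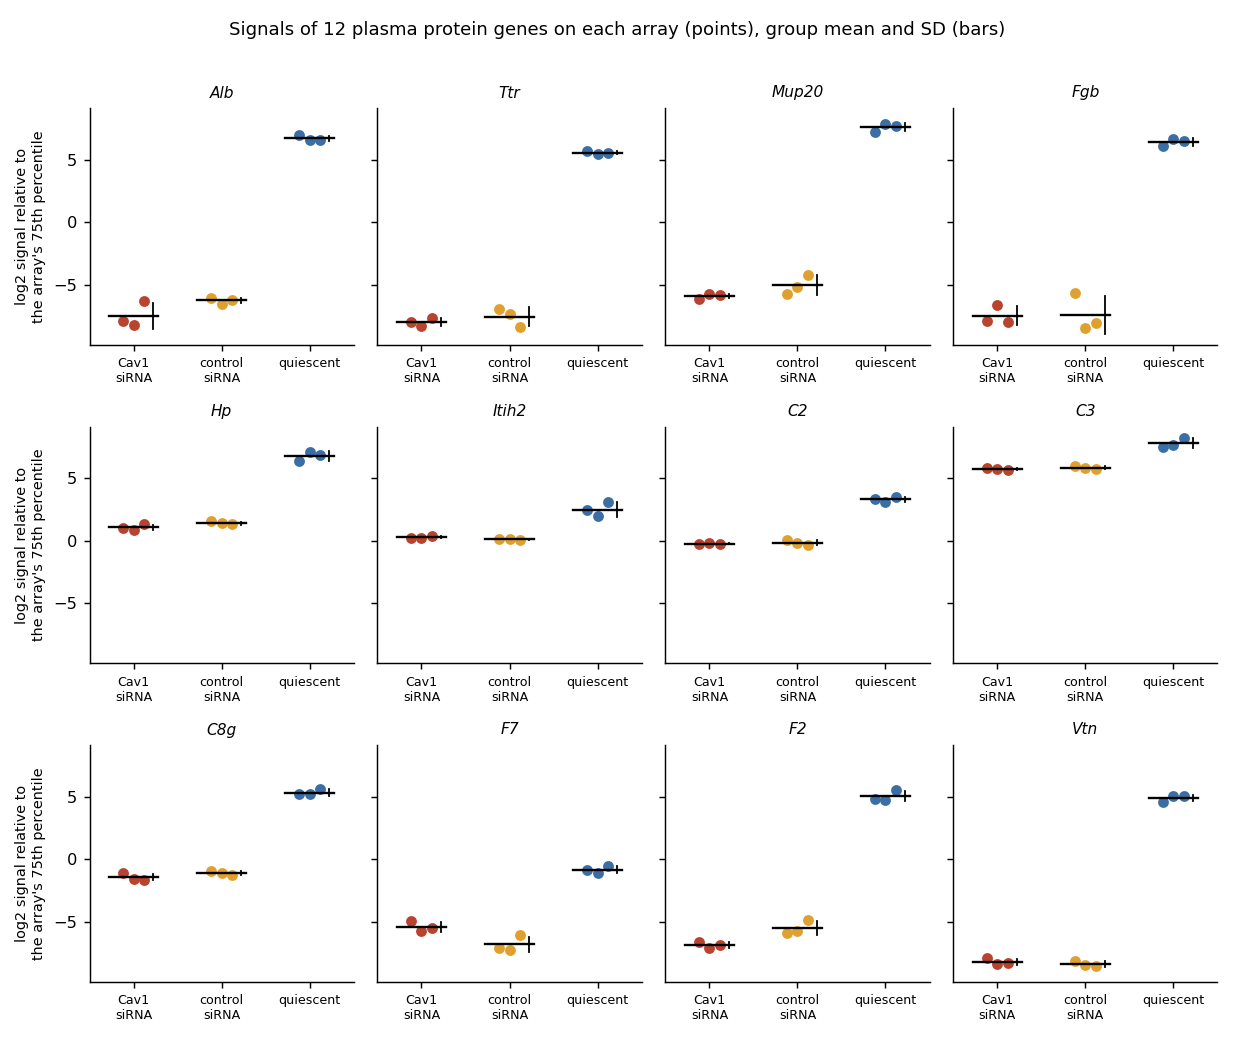
Log2 signal relative to the array's 75th percentile of 12 members on each of the 9 arrays (points), with group mean and SD (bars), Cav1 siRNA left, control siRNA in the middle and quiescent right. Both activated groups lie below the quiescent arrays in every panel, by about 2 log2 units in C3 and Itih2 and by over 10 in Alb, Ttr, Mup20, Fgb, F2 and Vtn in control-siRNA cells. Levels should be read within a panel only.

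Clotting factors and cofactors fell in 8 of 8 cases, with a median of -9.68, or -7.89 with the 5 genes below background in control-siRNA cells at their bound, and no member of this group was above background on all 6 activated arrays. F5, the cofactor of factor Xa, had log2 signals of -5.66, -5.64 and -5.68 after Cav1 siRNA, -5.52, -5.82 and -4.97 after control siRNA and 1.57, 2.07 and 2.61 in quiescent cells. F9, the factor lacking in haemophilia B, had -7.92, -8.29 and -8.38 after Cav1 siRNA, -8.05, -8.47 and -8.49 after control siRNA and 1.59, 1.98 and 2.27 in quiescent cells. F2, prothrombin, had -6.61, -7.14 and -6.83 after Cav1 siRNA, -5.88, -5.77 and -4.82 after control siRNA and 4.88, 4.80 and 5.57 in quiescent cells. All 6 activated arrays lay below all 3 quiescent ones in each. F5 fell 184-fold in control-siRNA cells (log2 -7.52, adjusted p = 3.8e-08), F2 1521-fold with 2 of 3 arrays above background, and F9 was at least 273-fold lower. F7, the factor activated by tissue factor, had -4.95, -5.77 and -5.47 after Cav1 siRNA, -7.07, -7.30 and -6.10 after control siRNA and -0.87, -1.07 and -0.54 in quiescent cells. It was called lower, with only 1 control-siRNA array above background. F10, F11, F12 and the carrier chain F13b were above background on no activated array and at least 811, 190.2, 316 and 207-fold lower.

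Fibrinogen is built of 3 chains whose genes lie together on chromosome 3, and all 3 fell. Fga (chr3:82837260-82837319) had log2 signals of -5.53, -5.55 and -6.24 after Cav1 siRNA, -5.78, -5.53 and -4.94 after control siRNA and -1.27, -0.86 and -0.43 in quiescent cells. Fgg (chr3:82818825-82818884) had -7.95, -8.31 and -8.40 after Cav1 siRNA, -8.10, -8.46 and -8.51 after control siRNA and 6.09, 6.97 and 6.78 in quiescent cells. Fgb had -7.91, -6.62 and -7.95 after Cav1 siRNA, -5.66, -8.49 and -8.09 after control siRNA and 6.12, 6.68 and 6.53 in quiescent cells, above background on 1 activated array, and is given to complete the 3 chains. Fgg was at least 6929-fold lower in control-siRNA cells (adjusted p = 8.4e-10), whereas the Fga probe gave 23.7-fold (log2 -4.57). Fgb had a fitted log2 change of -13.86, or -14.73 without control-siRNA array 1, the only activated array where it was above background. The value of -14.73 thus rests on control-siRNA signals at background, and its size is limited by it. The other Fga probe, at chr3:82835678-82835737, had -7.94, -8.26 and -8.38 after Cav1 siRNA, -8.02, -8.45 and -8.48 after control siRNA and 2.16, 2.94 and 2.39 in quiescent cells. It gave a log2 change of -10.81, at least 400.4-fold lower, so the smaller fall belongs to 1 of the 2 Fga probes.

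The anticoagulant, contact and fibrinolysis genes fell in 5 of 5 cases, with a median of -9.08. Kng1, kininogen, the source of bradykinin, had log2 signals of -3.59, -3.66 and -3.35 after Cav1 siRNA, -3.47, -3.42 and -3.39 after control siRNA and 5.23, 5.85 and 5.88 in quiescent cells. Klkb1, plasma prekallikrein, which releases bradykinin, had -5.10, -5.62 and -4.88 after Cav1 siRNA, -4.83, -5.29 and -4.34 after control siRNA and 2.23, 2.08 and 3.24 in quiescent cells. Vtn, vitronectin, an adhesive protein that binds integrins, had -7.91, -8.35 and -8.31 after Cav1 siRNA, -8.13, -8.49 and -8.53 after control siRNA and 4.61, 5.05 and 5.08 in quiescent cells. By the probe standing for each gene, the 2 genes of the kinin system stayed above background on all 6 activated arrays. Their falls were 541-fold and 162-fold in control-siRNA cells, and Vtn was at least 2135-fold lower. Each of the other kept Kng1 probes was above background on 1 Cav1-siRNA array and 0 control-siRNA arrays. Proc, protein C, was at least 882-fold lower. Plg, plasminogen, was at least 40.1-fold lower by a probe that read -0.90, -0.85 and -0.73 in quiescent cells.

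What remained in the activated cells split the members. A total of 18 were above background on all 6 activated arrays, 11 on some and 18 on none. Over the 46 called lower, which leaves out Masp1, the split was 17, 11 and 18. Among the genes of the array that were above background on all 3 quiescent arrays and called lower, 74.8% were above background on all 6, 11.4% on some and 13.7% on none. The 18 that remained on all 6 were Gc, Hp, Hpx, Mup3, Ahsg, Fetub, Itih2, Itih4, Hrg, Masp1, C2, C3, C4b, Cfb, C8g, C9, Kng1 and Klkb1. This split holds for the probe standing for each gene. Further kept probes of Mup3, Cfb and Kng1 were not above background on all 6. By array, 21, 24 and 23 members were above background with the Cav1 siRNA, 22, 25 and 26 with the control siRNA and 47 on each quiescent array.

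The quiescent arrays also differed among themselves in these genes. Of the 47 members 30 were lowest on quiescent array 1, 15 on array 2 and 2 on array 3, and 31 were highest on array 3. The members' median deviation from their group mean was -0.31, +0.03 and +0.27 on arrays 1, 2 and 3, against -0.02, -0.04 and +0.04 over all genes. All 8 clotting factors, all 5 terminal components and all 5 of the anticoagulant group were highest on array 3, while 5 of the 9 carriers were highest on array 2. These shifts were small beside the falls: the median SD of a member was 0.41 within the quiescent group, and leaving out any 1 array kept 46 members lower in both comparisons.

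Cav1-siRNA cells were compared with control-siRNA cells to ask whether the knockdown moved what was left of these genes. None of the 47 members passed the test with limma (0 of 47, against 0% of all genes), 8 had an unadjusted p under 0.05 (4.96% of all genes had one) and the groups did not overlap in 7 (22.6% of all genes), 4 of them lower and 3 higher. Those 8 were Alb, Mup20, Mup21, Ahsg, Fetub, Masp2, F2 and F7. Of these, Ahsg and Fetub alone were above background on all 6 activated arrays and Mup21 was on none, so their number rests in part on signals at background. Among the 18 members above background on all 6 activated arrays, the mean was lower after Cav1 siRNA in 14 (77.8%, against 55.2% of all 21208 such genes), and the median log2 change was -0.15, against -0.02. F7 averaged -5.40 ± 0.41 with the Cav1 siRNA and -6.82 ± 0.64 with the control siRNA (SD, n = 3 each), a log2 change of +1.42 (95% confidence interval 0.67 to 2.18, adjusted p = 0.533 by limma). Its probe was above background on 3 Cav1-siRNA arrays and 1 control-siRNA array. F2 averaged -6.86 ± 0.27 with the Cav1 siRNA and -5.49 ± 0.58 with the control siRNA (SD, n = 3 each), at least 1.43-fold lower (fitted log2 -1.37, interval -2.09 to -0.64, adjusted p = 0.529 by limma). These 2 were chosen for their size after their values were seen. In both, 3 of 3 Cav1-siRNA arrays lay on one side of the control-siRNA arrays.

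The 2 fetuin genes also had non-overlapping groups, with Ahsg at -0.55 (interval -0.91 to -0.19) and Fetub at -0.61 (-1.10 to -0.12), adjusted p = 0.691 and 0.86. The Alb probe was above background on 1 of the 6 activated arrays, so no change is given for it. With array weights, F2 (log2 -1.54, adjusted p = 0.021), Ahsg (-0.59, adjusted p = 0.0335) and Fetub (-0.61, adjusted p = 0.0297) were called lower in this comparison. The F2 probe was above background on no Cav1-siRNA array, so the size of its change is limited by background. Itih2 and Masp1, the other 2 with non-overlapping groups among genes above background, were at +0.17 and +0.31 and not called. Among the members that stayed bright, C3 had -0.09 (interval -0.54 to 0.37), C2 -0.09 (-0.46 to 0.28), Hp -0.35 (-0.83 to 0.13) and Itih2 +0.17 (-0.41 to 0.75). For 15 of the 18 members above background on all 6 activated arrays the interval excluded a change of 1 log2 unit either way, and their median half-width was 0.53. For the 18 members above background on no activated array, the signals of the 2 activated groups lay at background and have no order. Mup21, 1 of these, was the remaining gene with non-overlapping groups.

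**Figure D5:**
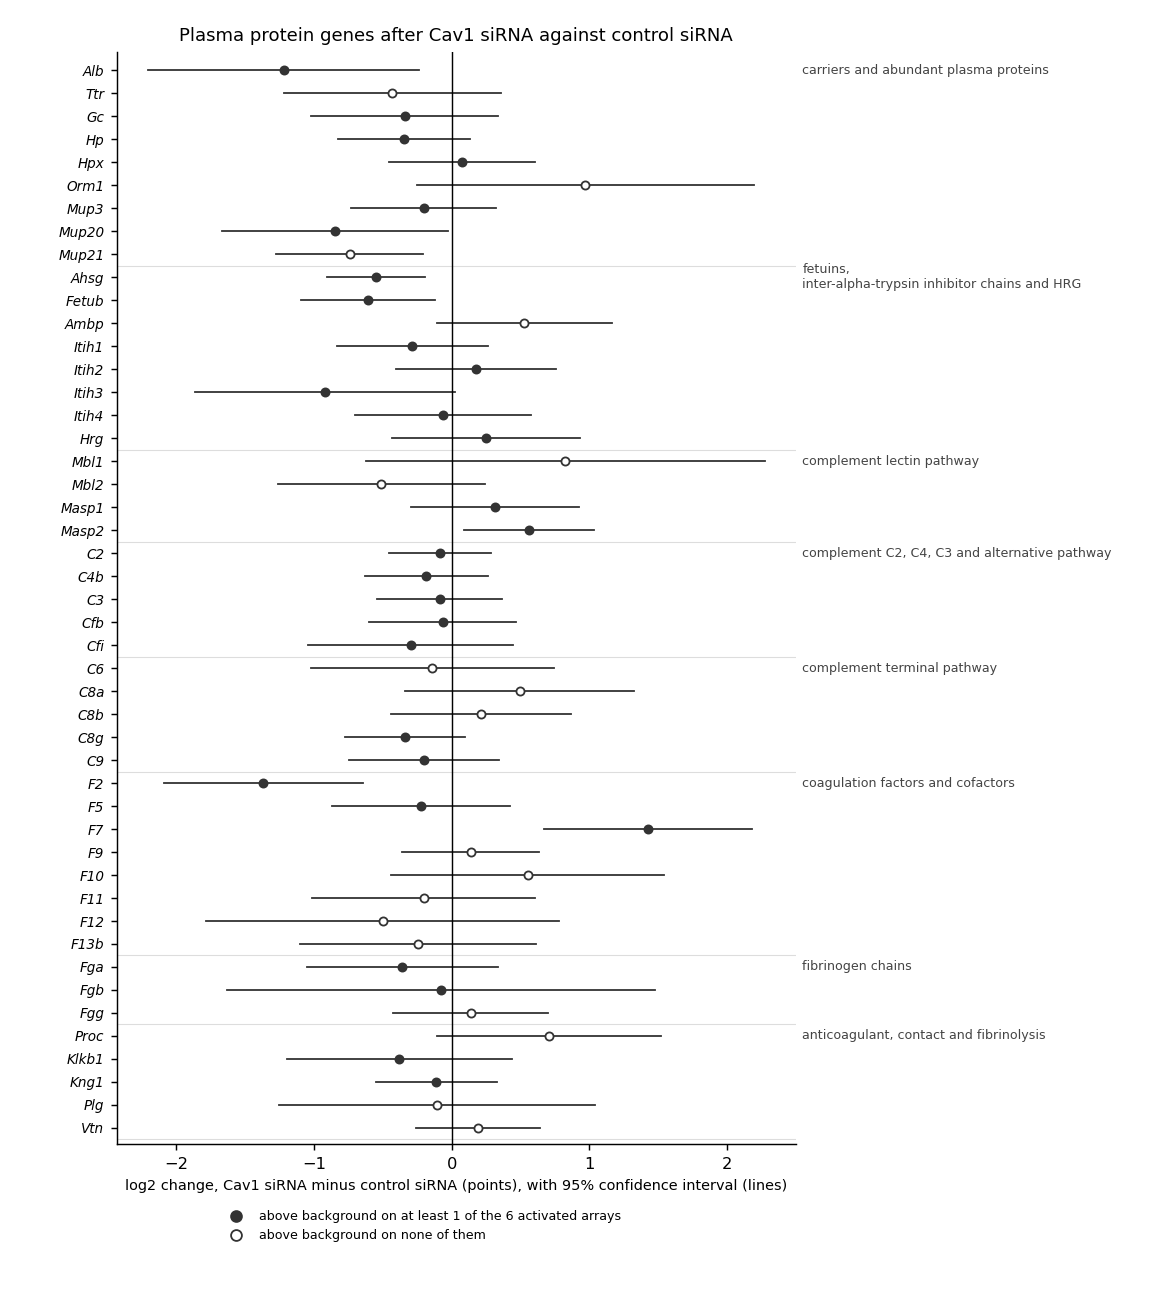
Log2 change of the 47 measured members, Cav1 siRNA minus control siRNA, with 95% confidence intervals as lines. The points lie between -1.37 (F2) and +1.42 (F7), none passed the test after adjustment over all genes, and open points mark genes above background on none of the 6 activated arrays.

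Genes outside the list were read from 4 further lists of the same pathways. Their counts in control-siRNA against quiescent cells stand beside 26% of all genes called lower and 42.1% called higher. Among 25 measured genes of 27 other complement genes, 18 fell and 5 rose in control-siRNA against quiescent cells, with a median of -2.45. The C1 protease genes C1s2 (log2 +3.00), C1s1 (+2.89) and C1ra (+1.72) rose, and these copies are uncertain one by one. Serping1, the inhibitor of C1 and kallikrein, fell by 8.70 on the log2 scale, and the lectin gene Fcna was at least 696-fold lower. Hc, the gene of C5, had log2 signals of -7.99, -7.77 and -7.14 after Cav1 siRNA, -6.58, -6.34 and -7.16 after control siRNA and 1.97, 3.21 and 3.13 in quiescent cells, at least 482-fold lower in control-siRNA cells (adjusted p = 5.0e-08).

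Among 23 measured of 25 other coagulation and fibrinolysis genes, 10 fell and 9 rose, with a median of -0.45 that crossed 0 in some alternatives. Over all genes 26% were called lower and 42.1% higher. Plat, tissue plasminogen activator, was at least 89.4-fold higher, and F3, tissue factor, rose by 5.70 on the log2 scale. The falls were led by Serpinc1, antithrombin (log2 -10.80), Serpinf2, the plasmin inhibitor (-9.73), and Proz, protein Z (-8.27). The other plasma proteins fell in 21 of 22 measured cases of 24, with 0 rising and a median of -8.40, among them Hamp, the iron hormone hepcidin (at least 1806-fold lower), Saa4 (at least 489-fold) and Mug1 (log2 -11.49). Of 15 liver transcription factor genes 13 fell, with a median of -6.94. Hnf4a was at least 5117-fold lower, Foxa3 at least 235-fold lower, and Creb3l3 fell by 9.70. Foxa2 was called higher by 0.47 (adjusted p = 0.0435), a call that was lost in 14 of 24 alternatives. In Cav1-siRNA against control-siRNA cells 0 genes of any of the 4 lists passed the test. With array weights 4 did, in 3 of the lists, among them Serping1 (log2 -0.65, adjusted p = 0.0115).

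Promoters were read because nearly all members fell together. Windows of 300 bases around the gene start, most of them before it, were held for 35 of the 48 members among 27025 genes (RefSeq, GRCm38.p6), and 3 motifs were searched on both strands. The HNF1 half-site GTTAATNA was in 5 of the 35 (14.3%), against 2.98% of all genes. The C/EBP motif TTGCNNAA was in 12 of the 35 (34.3%), against 12.2% of all genes. The HNF4 core CAAAGTNCA was in 1 of the 35 (2.86%), against 1.64% of all genes. A match is a description of letters and not a bound site. The HNF1 half-site was found in Alb, C8a, F13b, Fga and Gc, and the HNF4 core in F9. The windows of 3 genes are printed here, with capitals where a motif matched: Alb (chr5:90460620-90460919, plus strand), with a large fall and both an HNF1 and a C/EBP match that do not overlap, Fgb (chr3:83049814-83050113, minus strand), a fibrinogen chain with a large fall, and C3 (chr17:57228087-57228386, minus strand), with the smallest fall of the called members. Each of the last 2 holds 1 C/EBP match.
Alb: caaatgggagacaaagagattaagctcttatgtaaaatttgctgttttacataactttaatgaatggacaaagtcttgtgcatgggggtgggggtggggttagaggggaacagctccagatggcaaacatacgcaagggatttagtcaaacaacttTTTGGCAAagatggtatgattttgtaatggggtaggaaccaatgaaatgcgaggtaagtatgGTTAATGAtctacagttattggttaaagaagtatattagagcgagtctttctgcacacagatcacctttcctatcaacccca
Fgb: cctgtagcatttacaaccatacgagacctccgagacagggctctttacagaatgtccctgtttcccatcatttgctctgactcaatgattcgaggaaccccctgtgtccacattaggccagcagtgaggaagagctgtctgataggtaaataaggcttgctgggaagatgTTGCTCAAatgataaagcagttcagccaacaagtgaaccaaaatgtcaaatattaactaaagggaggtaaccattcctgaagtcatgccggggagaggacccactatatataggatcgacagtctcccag
C3: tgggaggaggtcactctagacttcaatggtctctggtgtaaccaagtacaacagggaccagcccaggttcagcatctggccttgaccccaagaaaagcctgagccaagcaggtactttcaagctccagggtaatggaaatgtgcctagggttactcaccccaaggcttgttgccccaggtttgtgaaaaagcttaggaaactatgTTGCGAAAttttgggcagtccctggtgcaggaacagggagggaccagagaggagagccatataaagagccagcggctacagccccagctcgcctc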

How the data were processed

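Hepatic stellate cell RNA was labelled with Cy3 on 9 one-colour Agilent arrays, 3 for each group, grouped by the labels. Scans were read by the authors with Agilent Feature Extraction, version 10.7.1.1 in the submitters' processing notes and in the headers. The deposited value is the processed signal, a linear intensity after background subtraction and detrending per the file headers, and arrays were not scaled to each other. Also read were the deposited flags for background, saturation and outlier spots, which are other values of 0 or 1 per the file headers, and the mean and local background intensity of each spot. The deposited table of the whole series, of the same intensity, served as an alternative. No spot was saturated.

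From the log2 of each signal, that array's 75th percentile over 59305 non-control spots was subtracted, and repeat spots were averaged after outliers were dropped. Probes stayed in if, throughout 1 group or more, each array had a share of 0.5 or more of their spots well above background (36817 of 56605 probes). Names came from the files and from RefSeq accessions (32994 probes) or synonyms (520 probes). The brightest kept probe stood for a gene. Coordinates of probes are on mm9, per the file headers, and those of promoters on GRCm38.p6. Tests came from limma (3.58.1, under R 4.3.3), with lmFit and eBayes on the 9 arrays together (a mean for each group, two-sided, Benjamini-Hochberg over 23965 genes). Calls are at an adjusted p under 0.05, and the procedure was tested on simulated data. Where a probe was above background on no array of a group, the change is a lower bound, the brighter group's mean against the lowest signal above background on each array of the dimmer group, or the gene's own where higher. Tables were read with the data.table package (1.17.8) and figures drawn with matplotlib 3.10.9 in Python 3.11.15.

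Members described array by array were the 3 markers, the members with the highest and lowest signal in activated cells in each role, those above background on all 6 activated arrays and those not called against quiescent cells. Fgb, F2 and F7 were added after their values were seen. From each further list the 3 largest called rises and falls are named, except 1 gene that is not reported here. The members and lists were chosen with earlier results of these data known. The number of arrays limits the precision, and background limits it for dim genes. Arrays with the same replicate number did not deviate together (correlations of -0.11 to +0.17), so the numbers were not used as pairs. Alternatives of scaling, background correction, filter, probe choice, slide, block, spread and left-out arrays were tried.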

Additional observations from a re-analysis of the deposited data

How the results depend on the processing

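The count of members called lower was 46 in 22 of 25 alternatives with the control siRNA and 22 of 24 with the Cav1 siRNA, both against quiescent cells. The exceptions were 17 of 18 tested with the filter on all 9 arrays and 64 of 68 with every kept probe, in both, and 47 with the mean of kept probes in control-siRNA cells. Leaving out 1 array at a time gave 46 to 46 members lower and 0 to 1 higher, with 14589 to 16823 genes called in control-siRNA against quiescent cells, 14495 to 16781 in Cav1-siRNA against quiescent cells and 0 to 2 in Cav1-siRNA against control-siRNA cells. Members called higher numbered 2 in both comparisons with every kept probe (Mup3 and Masp1 probes), where 25010 and 24903 features were called with the control and the Cav1 siRNA. In Cav1-siRNA against quiescent cells 1 was called higher, Masp1, with median scaling (+0.66), with array weights (+0.50) and without quiescent array 2, which also gave 1 with the control siRNA. Masp1 reversed to -0.76 in control-siRNA cells with the mean of kept probes, since one of those probes fell. With the slide as a fixed block 10141 genes were called in Cav1-siRNA against quiescent cells, in which 1 control-siRNA array links the slides. In Cav1-siRNA against control-siRNA cells, called genes numbered 7 with normexp and the 75th percentile, 5 with normexp and quantile normalization, 6 with the filter on all 9 arrays, 5 with only the 2 groups fitted, 4 with trended robust estimation and 656 with array weights, where 3 members were called lower. The causes of these shifts were not tested.

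Of the members' values in control-siRNA against quiescent cells, 1097 of 1099 kept their side of the threshold. Among those that kept it 3, all of Masp1 and not called, had the other sign. The exceptions were also of Masp1, called higher without quiescent array 2 (+0.42) and lower with the mean of kept probes (-0.76). No member called in the main fit was reversed. In Cav1-siRNA against control-siRNA cells 61 values with no call changed sign. Falls shrank under normexp, to medians of -6.48 and -6.40 with the control siRNA, and the median of all genes moved to -0.12 with the 75th percentile there, to -0.21 without the filter and to +0.47 with median scaling. The share of calls that were higher was 46.2% and 47.0% in the first 2 of these, against 61.8%. With the replicate block 46 members were lower in both comparisons, and 15837 and 15732 genes were called with the control and Cav1 siRNA. The block ended the call of Foxa2 (adjusted p = 0.0849 by limma) and of no other named gene. Cav1 itself was called lower in Cav1-siRNA against control-siRNA cells in 5 alternatives. The slide as a random block had a correlation of -0.10.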
